A study of Mus musculus with 12 samples.

Results

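Germ cells of XX (female) mouse embryos that carried a conditional knockout of Ezh2 (CKO) were compared with germ cells of XX control embryos (Ctrl) at E13.5. The comparison holds 5 of the 12 libraries of the series, 2 from XX CKO and 3 from XX Ctrl embryos. They were chosen by sex and genotype label, and the other 7 libraries, from XY embryos, served to estimate the spread and to test whether the effect of CKO differed between the sexes. All embryos were on a C57BL/6 background, each was genotyped by PCR, and the primordial germ cells of each embryo were sorted and sequenced on their own, so that 1 library is 1 embryo. The labels do not give the Cre driver, the exons removed, the genotype of the controls or the litters. Of 37991 genes in the count table, 16708 passed a filter on low counts and were tested.

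Ezh2 encodes the catalytic subunit of Polycomb repressive complex 2 (PRC2), which methylates a lysine of histone H3 and by this mark, H3K27me3, helps to keep genes silent. Germ cells at this stage have lost most DNA methylation of their genome, and in XX embryos they are leaving the mitotic cycle for meiosis and carry active X chromosomes. Germline genes of the X chromosome, germ cell defence genes and regulators of development are classes that repressive chromatin is known to hold silent in other cells.

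Total counts were between 29172269 and 31226903 in the 5 XX libraries. Between 21285 and 21289 genes had a count in CKO and between 19850 and 20776 in Ctrl. Summed markers of germ cells were between 6160 and 6390 CPM (read counts scaled to a common library size) in CKO and between 6270 and 6480 in Ctrl, so the label of the tissue matched its markers. Dazl held much of this sum, at 3220 and 3130 CPM in CKO against 3110, 2990 and 3160 in Ctrl. Of the 10 markers, 1 (Mael) was called higher and 2 (Dppa3 and Pou5f1) lower. The Y-linked genes together had at most 4 counts in any XX library. Markers of other cells were present at lower levels. Those of mesonephric epithelium summed to 207 and 251 CPM in CKO and to between 234 and 299 in Ctrl, most of it from Epcam, a surface protein that germ cells also express, at 190 and 224 against 214, 251 and 261. The 8 endothelial markers summed to 17.1 and 16.5 CPM in CKO against between 9.3 and 12.1 in Ctrl, with 4 of them under 1 CPM in all 5 libraries. The 8 stromal markers summed to 11.4 and 32.5 CPM in CKO against between 2.69 and 13.6 in Ctrl. Red blood cell markers reached 16.2 CPM in CKO 1 and at most 2.1 in the other 4 libraries. All 6 tested endothelial markers and all 5 tested red blood cell markers had a log2 fold change above 0, and the part of such cells in the changes of weakly expressed genes was not tested. Pregranulosa markers summed to between 20.6 and 22.2 CPM in CKO, inside the range of 16.1 to 28.6 in Ctrl.

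The XX libraries differed in how strongly the X chromosome as a whole was expressed. Over 308 X-linked genes with a mean of at least 10 CPM, the median level relative to the XY controls, minus the same median for 8530 autosomal genes, was 0.68 in XX CKO 1, 0.42 in CKO 2, 0.65 in Ctrl 1, 0.63 in Ctrl 2 and 0.17 in Ctrl 3 on the log2 scale. The XY libraries lay between -0.03 and 0.04. XX Ctrl 3 thus stood apart from the other controls toward the XY embryos, with CKO 2 between. The cause was not tested. Xist, the RNA that coats an inactive X chromosome, was at 0.234 and 1.32 CPM in CKO and at 0.461, 0.344 and 0.446 CPM in Ctrl, and was not called (log2 fold change 0.89 with an SE of 1.02, adjusted p of 0.647 in edgeR). Kdm6a, an X-linked H3K27 demethylase that escapes X inactivation, was at 70.5 and 65.6 CPM in CKO and at 102, 104 and 56.6 in Ctrl, lowest in the control with the low X level. It was not called with all libraries (adjusted p = 0.308) and was called lower without Ctrl 3, with a log2 fold change of -0.58 (edgeR adjusted p = 0.0387).

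**Figure D1:**
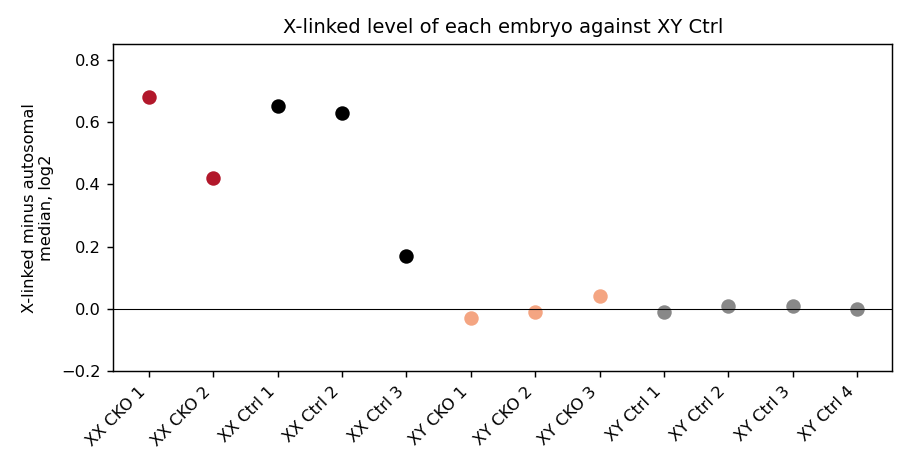
Each point is 1 embryo. The vertical axis is the median log2 level of 308 X-linked genes against the mean of the XY Ctrl libraries, minus the same median over 8530 autosomal genes. XX Ctrl 3 sits at 0.17, far below XX Ctrl 1 and 2 at 0.65 and 0.63, and the XY libraries sit near 0.

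The promoters below are those of a pair of X-linked genes that rose and a pair of autosomal genes that fell by large amounts, chosen after their values were seen, and they show how different the starts of such genes are. They are the 250 bases before the first listed start, from RefSeq on GRCm38.p6, 5′ to 3′ on the strand of the gene, with every CG dinucleotide in capitals. The counts were made on mm9, so these coordinates do not come from the counting.
Nxf2 promoter, chrX:134964755-134965004 (minus strand): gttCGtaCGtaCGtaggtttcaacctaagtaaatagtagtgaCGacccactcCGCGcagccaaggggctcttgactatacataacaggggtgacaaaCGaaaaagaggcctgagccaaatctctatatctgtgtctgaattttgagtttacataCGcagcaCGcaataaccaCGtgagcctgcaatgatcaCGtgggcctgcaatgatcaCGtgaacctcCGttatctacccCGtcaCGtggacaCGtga
Pramel3 promoter, chrX:135302066-135302315 (plus strand): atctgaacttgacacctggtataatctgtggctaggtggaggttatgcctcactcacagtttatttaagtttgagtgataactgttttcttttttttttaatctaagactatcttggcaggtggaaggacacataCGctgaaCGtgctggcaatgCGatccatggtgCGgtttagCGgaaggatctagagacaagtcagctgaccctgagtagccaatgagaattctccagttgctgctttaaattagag
Pax6 promoter, chr2:105668646-105668895 (plus strand): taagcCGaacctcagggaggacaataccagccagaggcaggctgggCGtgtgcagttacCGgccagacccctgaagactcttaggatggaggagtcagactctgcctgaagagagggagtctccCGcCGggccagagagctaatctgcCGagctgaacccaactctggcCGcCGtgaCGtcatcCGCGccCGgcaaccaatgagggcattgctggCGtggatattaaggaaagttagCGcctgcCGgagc
Scgn promoter, chr13:23991215-23991464 (minus strand): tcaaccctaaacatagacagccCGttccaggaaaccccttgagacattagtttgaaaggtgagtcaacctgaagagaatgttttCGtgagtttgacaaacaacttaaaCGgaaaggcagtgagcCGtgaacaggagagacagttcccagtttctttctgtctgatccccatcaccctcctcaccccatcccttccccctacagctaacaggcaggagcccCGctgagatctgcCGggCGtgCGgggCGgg
The Nxf2 promoter held 16 CG dinucleotides, against a median of 6 over the 27025 promoters of the table, and the Pax6 promoter held 15, the Scgn promoter 9 and the Pramel3 promoter 5. Searched on both strands, CACGTG, the E-box bound by MYC, MAX and related factors, matched at 5 positions in the Nxf2 promoter and at 0 in the other promoters. At least 1 match was present in 6.05% of all promoters, and 3 of the 27025 promoters had 5 or more, a count made after the Nxf2 matches were seen. TCCCGC, part of the motif of E2F factors, matched at 1 position in the Pax6 promoter and at 0 in the other promoters, and is in 16.9% of all promoters. CNCCTCAG, the motif reported for the meiotic inducer STRA8, is in 6.39% and matched in none of the 4 promoters. No promoter held more than 1 of the 3 motifs, so none overlapped, and a match is a run of letters, not a site. Over the genes tested, 70.8% had a promoter in the table, which is too few for a comparison of promoter sequence between called and other genes.

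In XX CKO germ cells, most rises were of genes that were scarce in the controls and most falls were of abundant genes. By edgeR's quasi-likelihood test at an adjusted p under 0.05, 1198 of 16708 genes changed (7.17%), 503 of them higher (3.01%) and 695 lower (4.16%). The 503 genes that rose had a median of 2.76 CPM in Ctrl and 9.79 in CKO, and a median log2 fold change of 1.66. The 695 genes that fell had a median of 99.2 CPM in Ctrl and 61.7 in CKO, and a median log2 fold change of -0.67. At least a 2-fold change was seen in 394 of the rises (2.36% of the genes tested) and in 113 of the falls (0.676%). At least 8-fold changes numbered 82 up and 14 down.

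By level, the tested genes were divided into 4 classes of 4177. In the lowest class, up to 1.27 CPM, 124 genes were called higher (2.97%, near the 3.01% of all genes) and 20 lower (0.479%). Rises were most frequent in the next class, up to 13.2 CPM, with 221 higher (5.29%) and 53 lower (1.27%). The class from 13.2 to 58.3 CPM held 122 higher (2.92%) and 192 lower (4.6%). In the highest, from 58.3 CPM, 36 were called higher and 430 lower, which is 10.3% of that class. The median log2 fold change over all genes of a class ran from 0.36 in the lowest to -0.13 in the highest. This split depends on the scaling. With library size only in place of trimmed-mean scaling, under which the median log2 fold change of all genes was 0.11, 652 genes were higher and 357 lower, so that 64.6% of the calls were rises in place of 42%.

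**Figure D2:**
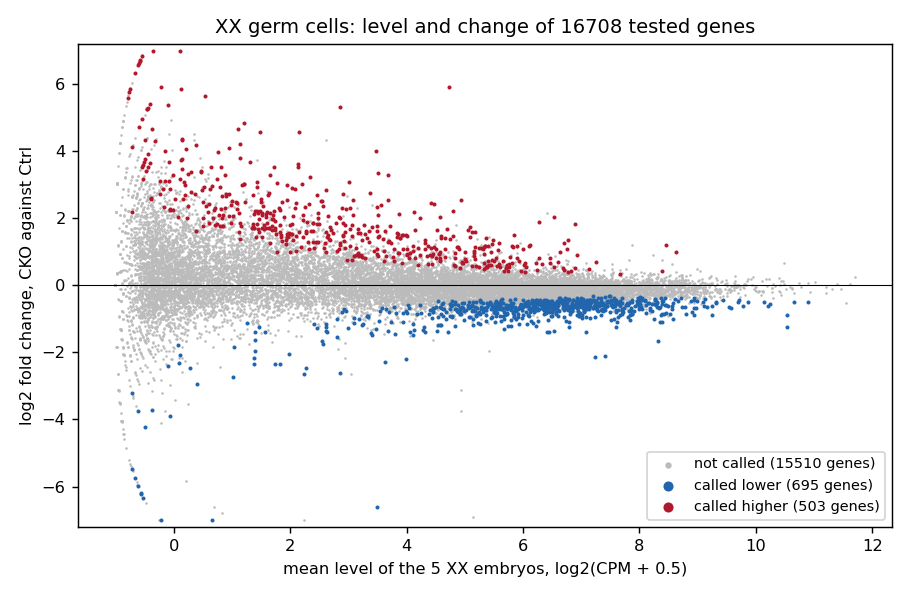
Each point is 1 of 16708 tested genes, with the mean level over the 5 XX embryos as log2(CPM + 0.5) on the horizontal axis and the fitted log2 fold change of CKO against Ctrl on the vertical axis. Called genes are coloured, and values beyond the axis are drawn at its edge. The 503 rises lie mostly at the left and spread far from 0, and the 695 falls lie mostly at the right and close to it.

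The 2 CKO embryos moved together, though not equally far. Each of the 1198 called genes had both CKO embryos beyond all 3 Ctrl embryos, a property that the call itself favours. Of the 15510 genes not called, 6249 also had groups that did not overlap. CKO 1 lay farther from the Ctrl mean than CKO 2 in 302 of the 503 rises (60%) and in 314 of the 695 falls (45.2%). The 2 CKO embryos differed from each other by more than 2-fold in 30 of the rises and 5 of the falls. When each of the 5 libraries was left out in turn, 72 rises and 42 falls were called every time, which is 14.3% and 6.04% of the calls.

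**Figure D3:**
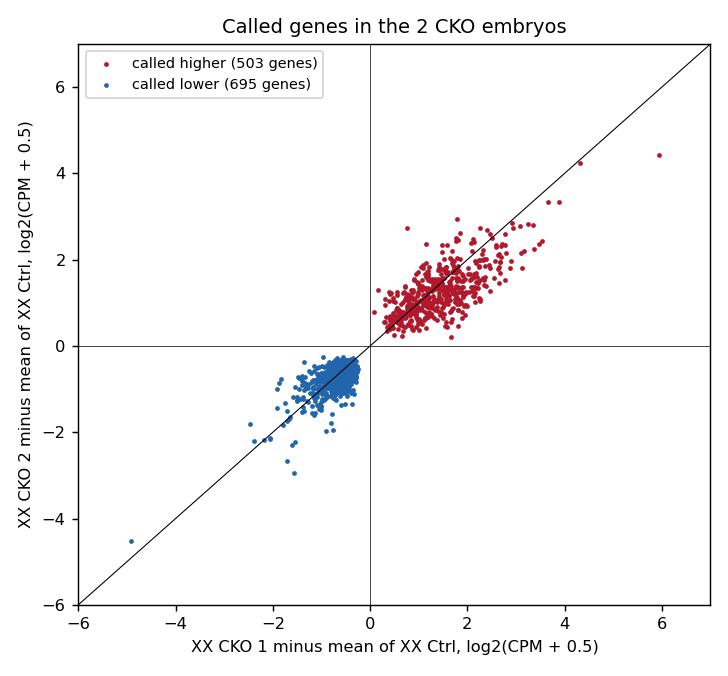
Each point is a called gene, with the difference of XX CKO 1 from the mean of the XX Ctrl embryos on the horizontal axis and that of XX CKO 2 on the vertical axis, both in log2(CPM + 0.5). The diagonal marks equal change. All called genes sit in the lower left or upper right quadrant, and rises fall below the diagonal in 302 of 503 genes.

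The targeted gene was lower in CKO. Ezh2 (ENSMUSG00000029687, chromosome 6) was at 84.5 and 107 CPM in the CKO embryos and at 150, 145 and 166 in the Ctrl embryos, so the groups did not overlap (a log2 change of -0.68 ± 0.15 SE, edgeR adjusted p 0.02). The call was kept in 3 of the 5 runs that leave out a library and lost without CKO 1 or Ctrl 3. Since the counts cover the whole gene, they do not show how much intact transcript was left. Of the 15 tested PRC2 genes, Ezh2 included, 3 fell (20%, against 4.16% of all genes) and 0 rose, and the falls numbered 0 without CKO 1 and 1 without Ctrl 3. The 3 falls were those of Ezh2, Suz12 and Jarid2, all in the highest class by level (from 58.3 CPM), of which 10.3% fell. Suz12, a core subunit, was at 127 and 152 CPM against 199, 234 and 259, and Jarid2, an accessory subunit, at 210 and 214 against 339, 354 and 331. Eed, the core subunit that binds the mark, was at 133 and 151 CPM against 146, 161 and 155 (edgeR adjusted p = 0.612), and Ezh1, the paralogue of Ezh2, at 77.5 and 71.0 against 88.8, 75.2 and 76.1 (adjusted p = 0.688).

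Other chromatin genes that were called were mostly lower. Among PRC1 genes 17.6% fell, against 4.16% of all genes. Of 34 PRC1 genes, 6 fell and 0 rose, but 0 fell with library size only in edgeR, and leaving out single libraries left at most 1 fall. Of 25 genes of DNA methylation and imprint protection, 5 fell (20% against 4.16% of all genes) and 1 rose, and between 0 and 3 fell when a library was left out. Dnmt1, the maintenance methyltransferase, went from 491, 432 and 428 CPM in Ctrl to 263 and 236 in CKO (log2 fold change -0.85 at an adjusted p of 0.0177 in edgeR). Mbd3, a subunit of the NuRD complex, went from 198, 205 and 205 to 141 and 123 CPM. As in every called fall, both CKO embryos were below every control for each gene. Dnmt1 and Mbd3 lay in the highest class by level, of which 10.3% fell. Zfp57, a zinc finger protein that protects imprints, was the member that rose, from 0.706, 0.532 and 0.377 CPM to 2.84 and 2.92. Daxx and Atrx, partners that deposit a histone H3 variant, fell by 0.91 and 0.65 on the log2 scale (adjusted p = 0.0133 and 0.0376). Without Ctrl 3 the X-linked Atrx was not called (-0.63, adjusted p = 0.108). The demethylase Kdm3a fell by 0.76.

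X-linked genes were called higher in a larger share than autosomal genes. Of 671 tested X-linked genes, 72 rose (10.7%, against 2.74% of 15323 autosomal genes) and 19 fell (2.83%, against 4.38%). At least a 4-fold change was seen in 42 of the 72 rises on X and in 148 of the 420 on autosomes. Without XX Ctrl 3, the control with the low X level, 41 rose and 27 fell, and without CKO 1, 23 rose and 7 fell. A core of 22 X-linked genes rose in every such run. The median over all 671 genes was 0.11 on the log2 scale, against -0.01 over the autosomal genes. Of 14 tested genes of X inactivation and escape 1 rose (7.14%, against 3.01% of all genes) and 0 fell, and without Ctrl 3 the counts were 0 and 4.

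A run of 8 neighbouring tested genes on X rose together, among them Nxf2, an RNA export factor gene, and the PRAME family genes Pramel3 and Prame, which belong to a family expressed in germ cells and tumours. Nxf2 was at 94.2 and 32.7 CPM in the CKO embryos and at 1.04, 1.03 and 1.03 CPM in the Ctrl embryos (fitted change 5.93 on the log2 scale with SE 0.95, adjusted p in edgeR 0.00743). Pramel3 was at 16.6 and 15.8 CPM against 0.154, 0.188 and 0.892. The CKO embryos were close to each other for Pramel3 but not for Nxf2. Prame had no count in any Ctrl embryo and was at 2.05 and 0.842 CPM in CKO, which is at least 45.2-fold higher when set against a floor of 3 counts over the Ctrl group. AV320801, a further member of the run, was at 9.81 and 7.61 CPM against 0.921, 1.0 and 1.3, and Zmat1, a zinc finger gene, at 45.5 and 34.0 against 18.3, 10.4 and 16.5. The run was completed by Gm6207, Gm15023 and Gm15017. Gm6207 also lacked counts in Ctrl and was at least 22.1-fold higher on the same floor. Of the 8 genes, Zmat1 and Prame lost the call in all 5 runs that leave out a library, while Nxf2, Pramel3, Gm15023, Gm15017 and AV320801 kept it in all 5.

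Multicopy and cancer-testis families of the X chromosome held many of the rises on X. Of their tested members 51.2% rose, against 10.7% of tested X-linked genes and 3.01% of all genes. The share was 80% in Xlr, 21.4% in MAGE and 10.5% in Rhox genes. Of 41 tested members of such families, 21 rose and 0 fell, with a median log2 fold change of 1.33, and 16 rose without XX Ctrl 3 and 11 without CKO 1. Of 10 Xlr genes, lymphoid-regulated relatives of synaptonemal complex protein 3, 8 rose, between 0.72 in Xlr3b and 3.36 in Xlr5c. This count was 5 without Ctrl 3 and 2 without CKO 1. Xlr5a was at 53.1 and 32.0 CPM in CKO against 7.65, 8.1 and 8.03 in Ctrl, with CKO 1 well above CKO 2. Of 14 tested MAGE genes 3 rose, with 2 without any 1 of the Ctrl libraries and 1 without CKO 1. Mageb4, called in all 5 runs, was at 164 and 112 CPM against 33.6, 39.1 and 38.1. Of 19 Rhox homeobox genes 2 rose, and these were called in every run that leaves out a library. Rhox13 was at 26.8 and 22.6 CPM against 4.73, 2.72 and 5.11, and Rhox10 at 6.56 and 5.72 against 0.768, 1.22 and 1.3. For families whose copies are nearly identical, such as Xlr and Rhox, the value of a single member is uncertain, because the treatment of multi-mapped reads is not given in the sources used here.

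Other X-linked genes rose as well. Tktl1, a transketolase relative, was at 54.5 and 31.0 CPM against 8.85, 13.0 and 9.47 (log2 fold change 2.03 with an SE of 0.26, adjusted p of 0.00214 in edgeR). Usp26, a deubiquitinase of the testis, was at 19.3 and 19.6 CPM against 7.8, 6.6 and 8.78, and its neighbours Gpc4 and 1700080O16Rik were also called. Without Ctrl 3, Gpc4 was not called (1.42 on the log2 scale, edgeR adjusted p = 0.0774) and 1700080O16Rik was (1.78, adjusted p = 0.0497). Itm2a, a membrane protein gene, was at 10.5 and 12.9 CPM against 1.75, 1.16 and 1.96. Bex2, Nxf3 and Bex4 formed a further run of neighbours, of which Bex2 was not called without Ctrl 3 (1.03, edgeR adjusted p = 0.0554). Nxf3 was at 8.37 and 4.12 CPM against 0.43, 0.594 and 0.583. As in every called rise, all 3 controls lay below both CKO embryos, which does not show what Ctrl 3 adds. Tktl1, Usp26, Itm2a and Nxf3 were called in all 5 runs that leave out a library.

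Among autosomal genes, an enzyme of redox defence had the smallest p-value. Gsto1 (chromosome 19), an omega-class glutathione transferase, was at 57.6 and 62.9 CPM in CKO and at 10.4, 12.3 and 7.92 in Ctrl. Its log2 fold change of 2.56 (SE 0.18) had the smallest adjusted p of the comparison (edgeR, 3.52e-05). Gsto2, its paralogue, was at 19 and 15.7 CPM against 5.04, 6.16 and 4.49. Both genes were called in every run that leaves out a library. Of 48 tested redox genes 6 rose (12.5%, against 3.01% of all genes) and 2 fell (4.17%, near the 4.16% of all genes). Fewer rose in each run that left out a library, with 4 or 5 when it was a Ctrl library. Sqor, a mitochondrial enzyme of sulfide oxidation, was at 9.66 and 7.64 CPM against 0.706, 1.19 and 0.343. Heme oxygenases went in opposite directions, since the inducible Hmox1 fell from 20.1, 20 and 12 to 5.36 and 1.78 CPM, while the constitutive Hmox2, chosen after its values were seen, rose from 77.2, 77.5 and 78.4 to 120 and 109.

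Lipid enzymes rose in a similar share, with 7 of 45 higher (15.6%, against 3.01% of all genes) and 1 lower (2.22%, against 4.16%). Fewer rose in each run that left out a library, with 4 or 5 when it was a Ctrl library. Dgat2, which makes triglycerides, was at 85.8 and 80.9 CPM against 45.2, 38.2 and 30.7 (a log2 change of 1.13 ± 0.16 SE, edgeR adjusted p 0.00341). Pla2g1b, a secreted phospholipase, was at 6.53 and 4.9 CPM against 0.706, 0.5 and 0.549, and Alox15, a lipoxygenase, at 3.16 and 4.51 against 0.154, 0.156 and 0.515. Lpar3, a receptor for lysophosphatidic acid, was at 16.6 and 15.7 CPM against 3.01, 1.69 and 0.995. These 4 genes kept the call in all 5 runs.

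Glycolysis genes moved the other way. Of 31 tested members, 6 fell (19.4%) and 0 rose, against falls of 4.16% over all genes and 10.3% in the highest class by level. A log2 fold change below 0 was seen in 26 members, and the median was -0.35. The 6 falls were also 6 under library-size scaling, and between 3 and 6 when a library was left out. Pfkfb3, which makes the activator of phosphofructokinase, was at 7.26 and 9.12 CPM in CKO against 20.0, 21.7 and 22.7 in Ctrl (fitted change -1.39 on the log2 scale with SE 0.21, adjusted p in edgeR 0.0045). Pdk1, the kinase that holds back pyruvate dehydrogenase, was at 49.0 and 57.6 CPM against 100, 89.3 and 134. Slc2a3, a glucose transporter, was at 70.4 and 61 against 117, 121 and 105, and Pkm, pyruvate kinase, at 893 and 899 against 1230, 1390 and 1470. Pfkfb3 and Pdk1 kept the call in all 5 runs. Ribosomal protein genes of the cytoplasm and the mitochondrion, with 82 and 76 members tested, had 0 called in edgeR, DESeq2 or limma-voom, and 5 and 8 at an unadjusted p under 0.05. Of 96 genes of oxidative phosphorylation 2 rose and 2 fell (2.08% each, against 3.01% and 4.16% of all genes).

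Among genes of cell junctions, falls outnumbered rises, and the count rests on the scaling. Of 42 cadherin, tight junction, claudin and keratin genes, 11 fell and 4 rose, with a median log2 fold change of 0.03. The falls were 26.2%, against 4.16% of all genes and 10.3% of the highest class by level. The rises were 9.52%, against 3.01% of all genes. With library size only, 3 fell, and leaving out a library left between 2 and 4 falls. Tjp1, the scaffold of tight junctions, was at 66.0 and 33.4 CPM in CKO against 265, 188 and 200 in Ctrl (log2 fold change -2.13 with an SE of 0.41, adjusted p of 0.0127 in edgeR). Cdh1, E-cadherin, was at 33.8 and 43.5 CPM against 78.2, 82.7 and 94.2, and F11r, a junctional adhesion molecule, at 47.3 and 53.4 against 86.8, 79.8 and 93.3. All 3 genes fell in both CKO embryos to below the lowest control, as did every called fall. Jam3, a related adhesion molecule, rose from 14.3, 10.4 and 11.3 to 36.7 and 25.1 CPM. In bulk libraries such a change cannot be told apart from a change in the share of cells that express the gene.

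Receptors and feedback genes of FGF and MAP kinase signalling followed. Of 34 tested, 5 were lower (14.7%, against 4.16% of all genes) and 1 higher (2.94%, against 3.01%). Without CKO 1 no fall was called, and with library size only 3 were. Fgfr2 and Fgfr3, FGF receptors, fell by 0.92 and 0.79 on the log2 scale (adjusted p in edgeR of 0.0267 and 0.0246). Fgfr3 lost the call in each of the 5 runs that leave out a library, and Fgfr2 kept it in 2. Dusp4, a phosphatase that shuts off MAP kinases, was at 5.42 and 10.7 CPM against 15.3, 26.9 and 25.7, with CKO 1 lowest. Insr, the insulin receptor, rose from 6.66, 6.88 and 8.34 to 12.1 and 17.9 CPM, and kept the call in 1 of the 5 runs. Kit, the receptor of stem cell factor, was at 335 and 390 CPM against 550, 473 and 554, without overlap, but did not pass the test (adjusted p = 0.173).

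In the BMP and TGF-beta pathway 4 of 39 genes rose (10.3%, against 3.01% of all genes) and 2 fell (5.13%, against 4.16%). Leaving out a library left 1 or 2 rises and between 0 and 2 falls, with 0 falls without CKO 1. The transducer Smad1 was at 37.2 and 38.1 CPM against 19.3, 24.4 and 20.3 and was called in all 5 runs, while Smad4, the shared partner of the SMAD proteins, went from 132, 113 and 141 to 78.7 and 81.7. The ligand Gdf3 fell from 35.4, 43.8 and 54.9 to 16.2 and 23.1 CPM and the ligand Tgfb1 rose from 9.21, 10.3 and 8.54 to 13.6 and 17.1. Tgfb1 lost the call in each of the 5 runs. Of 51 Wnt pathway genes 2 fell (3.92%, near the 4.16% of all genes), with 0 falls without CKO 1 or CKO 2 and 1 in the other runs, among them the receptor Fzd7 from 89.8, 70.6 and 62.0 to 35.7 and 40.8 CPM, and 0 rose. In the Notch and Hedgehog pathways 0 of 29 tested genes were called by edgeR or limma-voom, 1 by DESeq2, and 6 had an unadjusted p under 0.05.

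The count of calls among genes of the meiotic chromosome depended on the libraries and the tool. Of 17 synaptonemal complex and cohesin genes 2 rose (11.8%, against 3.01% of all genes) and 0 fell, and 14 had a log2 fold change above 0. Without CKO 1, Ctrl 1 or Ctrl 3 the count was 0, and without CKO 2, or with library size only, 4 rose. DESeq2 called 6 higher, limma-voom 7 and the fit of the 5 XX libraries alone 5. Sycp2, a component of the chromosome axis, was at 69.0 and 46.1 CPM against 16.7, 22.9 and 18.3. Sycp3, its partner, was at 216 and 102 CPM against 70.1, 87.0 and 65.5, and CKO 1 was far above CKO 2. Sycp1, of the transverse filaments, was at 413 and 297 CPM against 154, 164 and 141 and missed the threshold (adjusted p = 0.148 in edgeR). Stra8, which starts the programme, was at 580 CPM in CKO 1 and 300 in CKO 2 against 296, 276 and 212 (adjusted p = 0.227), so that CKO 2 was barely above the highest control. Rec8, the meiotic cohesin, was at 185 and 160 CPM against 150, 118 and 114 (adjusted p = 0.618). Of 37 recombination genes 2 rose (5.41%, against 3.01% of all genes) and 0 fell, and 0 rose without Ctrl 1 or Ctrl 3. DESeq2 called 9 higher and 2 lower and limma-voom 8 higher and 1 lower.

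Of 22 oocyte genes 2 were called higher and 2 lower (9.09% each, against 3.01% and 4.16% of all genes). The rises numbered 0 without CKO 1, CKO 2 or Ctrl 1, and the falls 0 without CKO 1 or Ctrl 3, while DESeq2 called 5 higher and 3 lower and limma-voom 6 and 3. Ooep, a component of the maternal complex of the egg, fell from 8.85, 12.3 and 19.6 to 4.62 and 5.15 CPM, and Uchl1, a ubiquitin hydrolase abundant in oocytes, rose from 60.6, 69.6 and 71.4 to 157 and 162. Nlrp4f rose from at most 0.274 CPM in Ctrl to 2.78 and 0.933. Uchl1 lost the call in all 5 runs that leave out a library and Nlrp4f in 4. Figla and Nobox, factors of the primordial follicle, did not pass the test (adjusted p = 0.0756 and 0.0592). Figla was at 12.8 CPM in CKO 1 and 3.64 in CKO 2 against 2.06, 2.78 and 1.68, and Nobox at 1.49 and 4.06 against 1.04, 0.688 and 0.309, so the embryo with the higher Figla had the lower Nobox. Boll, a relative of Dazl active in meiosis, rose from 27.3, 29.0 and 24.2 to 70.9 and 47.1 CPM. The broad germ cell genes Dazl and Ddx4 were not called, with adjusted p of 0.844 and 0.525.

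Pluripotency genes fell in part, with 6 of 38 lower and 1 higher (2.63%, against 3.01% of all genes). The falls were 15.8%, against 4.16% of all genes and 10.3% of the highest class by level. Nanog was at 35.2 and 57.2 CPM against 67.6, 106 and 114, and Pou5f1 at 128 and 156 against 196, 220 and 214. Dppa5a, expressed in early germ cells, was at 309 and 338 CPM against 407, 630 and 760. Among controls, Ctrl 1 was the nearest to the CKO embryos for Nanog, Pou5f1 and Dppa5a, and Ctrl 3 was the farthest for Nanog and Dppa5a. The falls numbered 0 without CKO 1, 1 without Ctrl 3, 2 without Ctrl 2 and 3 with library size only.

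Of 20 cyclins and inhibitors 2 rose (10%, against 3.01% of all genes) and 1 fell (5%, against 4.16%). Of 40 genes of apoptosis and p53 1 rose (2.5%) and 2 fell (5%), near the shares of all genes. Leaving out a library left 1 rise among the cyclins and inhibitors in each run. Ccnd2, the gene of cyclin D2, rose from 4.36, 2.06 and 2.54 to 17.8 and 11.8 CPM (a log2 change of 2.30 ± 0.37 SE, edgeR adjusted p 0.00533) and kept the call in all 5 runs. Cdkn2a, a cell cycle inhibitor gene and a known Polycomb target, rose from 0.768, 1.19 and 1.37 to 5.44 and 4.54 CPM, but lost the call in each of the 5. Cdkn1a, another inhibitor, was at 50.3 and 70.6 CPM against 45.4, 42.9 and 31.3 and did not pass (adjusted p = 0.0668). Trp63, the p53 relative that guards the integrity of oocytes, rose from 0.338, 0.438 and 0.48 to 2.37 and 3.25 CPM (log2 fold change 2.74, adjusted p = 0.00342). Ripk3, a kinase of necroptosis, rose from 1.63, 1.47 and 0.926 to 8.05 and 6.77 CPM. For Trp63 and Ripk3 the call held in all 5 runs. Of 43 mitosis genes 4 fell and 0 rose, and the falls were not kept without CKO 2. The share of falls was 9.3%, against 4.16% of all genes and 10.3% of the highest class by level, where Bub1 and Incenp lay. Bub1, a checkpoint kinase, was at 342 and 260 CPM against 512, 550 and 566. Incenp, of the chromosomal passenger complex, was at 140 and 141 against 272, 258 and 230.

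Of genes of antigen presentation, 3 were among those named. B2m, the light chain of MHC class I, was at 22.8 and 23.1 CPM against 8.6, 8.69 and 8.51 and was called in all 5 runs (log2 fold change 1.42 at an adjusted p of 0.00493 in edgeR). H2-K1, a heavy chain, was at 75.6 and 31.6 CPM against 19.5, 27.1 and 13.2, with CKO 2 just above the highest control. H2-Ab1, of MHC class II, rose from 0.983, 1.31 and 0.103 to 7.52 and 2.89 CPM. Macrophage markers summed to 1.23 and 1.47 CPM in CKO and to between 0.522 and 7.72 in Ctrl, with the highest sum in Ctrl 2, the control with the most H2-Ab1. The endothelial sum was 17.1 and 16.5 CPM in CKO against between 9.3 and 12.1 in Ctrl, and red blood cell markers were highest in CKO 1, where H2-K1 and H2-Ab1 were also highest. The part of such cells in these genes was not tested. H2-Ab1 lost the call in all 5 runs and H2-K1 in 3. Ddx58, a sensor of viral RNA, fell from 120, 114 and 185 to 56.8 and 73.6 CPM. Of 31 genes of RNA sensing and interferon response 2 rose (6.45%, against 3.01% of all genes) and 1 fell (3.23%, against 4.16%). Leaving out a Ctrl library left 1 or 2 rises and between 0 and 2 falls.

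Developmental regulators that lost expression included some that were nearly silenced. Pax6 (chromosome 2), a regulator of eye and brain, was at 0.0878 and 0.271 CPM in CKO and at 17.2, 12.9 and 23.2 in Ctrl (fitted change -6.60 on the log2 scale with SE 0.56, adjusted p in edgeR 0.000134). Lmx1b, a LIM homeobox gene of the limb and brain, had no count in either CKO embryo and was at 1.47, 1.53 and 2.44 CPM in Ctrl, at least 40.8-fold lower on a floor of 3 counts over the CKO group. Scgn, a calcium sensor of neurons and endocrine cells, fell from 3.93, 5.5 and 9.61 to 0.673 and 1.35 CPM. Pax6 and Lmx1b were called in all 5 runs. Tbx1, a T-box factor of the pharynx, was at 1.49 and 1.78 CPM against 12.4, 9.66 and 8.23, and Six2, of kidney progenitors, at 1.58 and 0.782 against 10.6, 3.28 and 5.56. Tbx1 was called in all 5 runs and Six2 in 1. Of 33 neural and ectodermal factors 6 fell (18.2%, against 4.16% of all genes) and 1 rose, and leaving out a library left between 2 and 4 falls and 0 rises. The rise was that of the X-linked Sox3 from 2.67, 3.19 and 3.12 to 7.64 and 7.04 CPM, which was not called without Ctrl 3 (1.34 on the log2 scale, edgeR adjusted p = 0.0666) or any other library. Of 48 mesodermal, endodermal and trophoblast factors 3 fell (6.25%, against 4.16% of all genes) and 0 rose, with 1 or 2 falls when a Ctrl library was left out. DESeq2 and limma-voom each called 5 lower and 3 higher. The Hox genes, classic PRC2 targets, were at or near 0, since 33 of 38 were under 1 CPM in all 5 libraries. Together the 38 summed to 11.6 and 13.2 CPM in CKO against 11.3, 6.04 and 7.51 in Ctrl. The 12 tested Hox genes had a median log2 fold change of 0.67, with 7 above 0 and 5 below. Of the 12 tested, 0 were called by edgeR or DESeq2, limma-voom called 2 higher, and 2 had an unadjusted p under 0.05.

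Autosomal rises of other kinds included Gabra4, a GABA receptor subunit, from 2.3, 2.47 and 1.65 to 14.3 and 14.3 CPM, and Nfib, a transcription factor, from 1.29, 0.719 and 0.652 to 4.16 and 9.96. Fgl1, a fibrinogen-like protein gene, rose from 0.983, 0.594 and 0.652 to 8.49 and 3.82 CPM. Clgn, a chaperone of sperm proteins, rose from 5.1, 3.57 and 3.74 to 26.5 and 17.3 CPM, and Cox8c, the testis form of a cytochrome oxidase subunit, from 1.26, 0.969 and 1.2 to 7.35 and 6.02. Their groups did not overlap, which holds for every called gene, and Nfib was the one of these with CKO 2 well above CKO 1. Among abundant genes, Slc25a31, the ADP/ATP carrier of germ cells, was at 654 and 467 CPM against 304, 310 and 233, and Umps, of pyrimidine synthesis, at 163 and 174 against 93.0, 85.5 and 93.2. Ctsl, the protease cathepsin L, rose with its neighbours Cdc14b and Aaed1 on chromosome 13, from 48.2, 46.6 and 35.7 to 106 and 79.6 CPM.

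Abundant genes that fell included several for RNA and protein handling. Hnrnpa2b1, an RNA-binding protein, was at 1130 and 498 CPM against 2120, 1790 and 1860, with CKO 2 lowest. Ncl, nucleolin, was at 1170 and 806 CPM against 1590, 1950 and 1930, and Hspd1, a mitochondrial chaperonin, at 920 and 879 against 1270, 1210 and 1330. Eif4g1 and Eif4g2, translation initiation scaffolds, fell by 0.87 and 0.48 on the log2 scale (adjusted p in edgeR of 0.00214 and 0.0119). Ap3b2, a subunit of the adaptor complex of vesicles, was at 62.6 and 74.1 CPM against 166, 176 and 195, and Cenpt, of the kinetochore, at 25.7 and 23.4 against 49.6, 54.3 and 50.9. Peg3, a paternally expressed imprinted gene, was at 116 and 162 CPM against 385, 465 and 475. Ap3b2, Cenpt, Peg3 and Eif4g1 were called in all 5 runs.

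**Figure D4:**
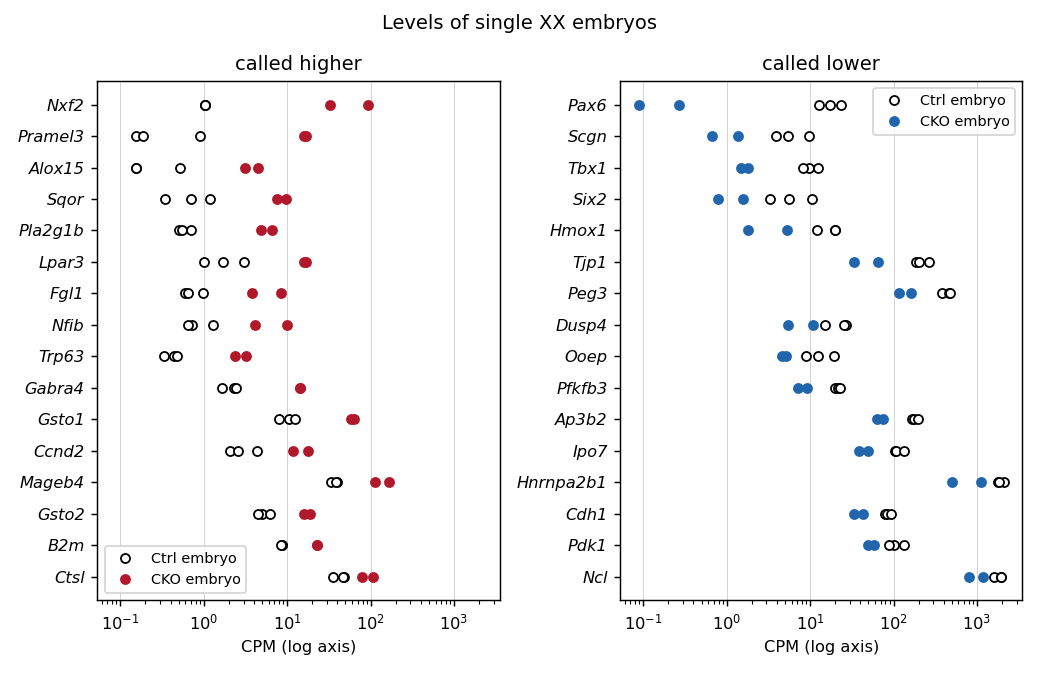
Levels in CPM on a log axis of genes described in the text, with 1 point per XX embryo, open for Ctrl and filled for CKO. In the left panel both CKO embryos lie above all 3 Ctrl embryos, and in the right panel they lie under them. Pramel3 and Gsto1 have close CKO embryos, and Hnrnpa2b1 and Nxf2 have CKO embryos that differ by more than 2-fold.

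**Figure D5:**
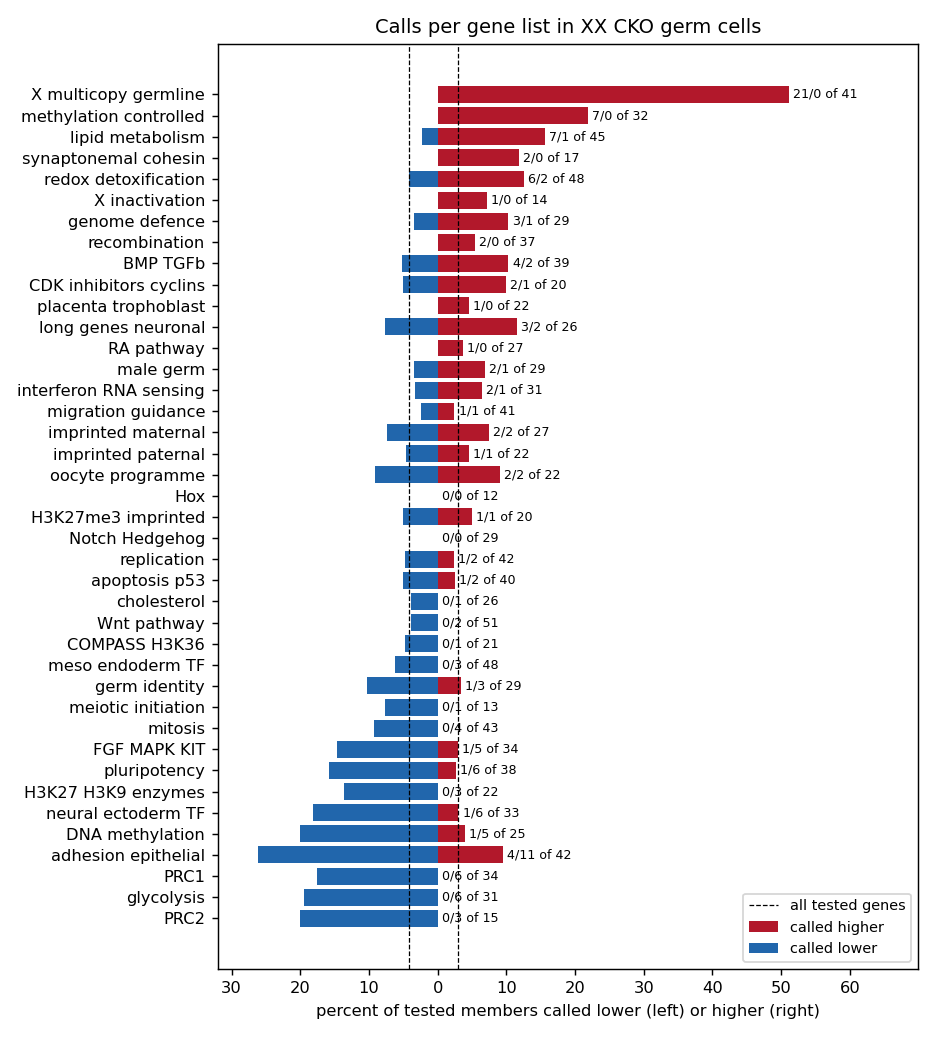
Share of the tested members of each gene list that was called higher (right) or lower (left) in XX CKO germ cells, with counts of higher and lower calls and of tested members beside each bar. Dashed lines mark the shares over all tested genes, 3.01% higher and 4.16% lower. X-linked multicopy genes reach 51.2% higher, and junction genes, PRC2 and DNA methylation genes reach the largest lower shares, from 20% to 26.2%.

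The effect in XX embryos was then set beside that in XY embryos of the same stage, which are separate animals with their own controls. In the XY comparison 284 genes were called (1.7%). Of the 503 rises in XX, 105 were also called higher in XY, which is 20.9% of the XX rises and 52.2% of the 201 XY rises. Of the 695 XX falls, 44 were also lower in XY, which is 6.33% of the XX falls and 53% of the 83 XY falls, and 0 genes were called in opposite directions. The numbers of embryos differ, 2 and 3 against 3 and 4, so the counts of calls do not rank the sexes.

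The difference of the 2 effects was tested directly, gene by gene, and 0 of 16708 genes passed in edgeR (0%), with a smallest adjusted p of 0.155. At an unadjusted p under 0.05 there were 1401, DESeq2 called 12 genes higher and 38 lower, limma-voom called 0, and DESeq2 and limma-voom shared 0. No gene was thus shown to respond to CKO in XX germ cells alone. Glipr2, a Golgi membrane protein gene, rose in XX from 7.77, 8.85 and 7.48 to 24.4 and 21.5 CPM (log2 fold change 1.52), and in XY had a log2 fold change of 0.23 (difference 1.29, SE 0.22, edgeR adjusted p = 0.155). Ipo7, an import receptor of the nucleus, fell in XX from 104, 108 and 135 to 49.6 and 38.7 CPM (-1.39), and was at -0.21 in XY (difference -1.18, adjusted p = 0.155). Ccnd2 and Trp63 had log2 fold changes of 0.40 and 0.28 in XY, with adjusted p for the difference of 0.385 and 0.294. For Trp63 the XX Ctrl embryos were lowest of the 4 groups, since XY Ctrl embryos were between 1.7 and 3.8 CPM and XY CKO embryos between 2.91 and 3.65.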

How the data were processed

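The authors deposited 1 table of raw counts per gene for 12 libraries. Per the labels' protocols, sorted germ cells of single embryos gave 1 ng of RNA for SMART-Seq V4 libraries, amplified for 11 cycles, a kit that does not mark strand. Reads were handled with TopHat2 2.0.11, featureCounts, Trimmomatic 0.33 and CASAVA 1.8.4 on mm9 and NCBIM37, per the submitters' processing notes, with no settings for reads that match several places. Gene symbols came from GENCODE M21, which named 32919 of 37991 identifiers and 99.5% of the counts.

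Genes were kept by filterByExpr (minimum count 10, total 15). Libraries were scaled by trimmed means (TMM), and all 12 were fitted by edgeR 4.0.16 in R 4.3.3 with its quasi-likelihood test on the deposited counts, 8 residual degrees of freedom and 1 mean per sex and genotype. P-values were adjusted by Benjamini-Hochberg over 16708 genes and called at 0.05. Replicates are embryos whose litters are not given, and p-values measure the spread between them. CPM use the scaled library sizes, so 1 CPM is between 29.1 and 34.2 counts in the XX libraries, and figures add 0.5 CPM before the logarithm. On simulated data for the XX comparison over 16227 genes, 48 of 100 genes changed 2-fold and 90 of 100 changed 4-fold were recovered, with 10 false calls.

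The 40 gene lists, 9 marker lists, 20 families and the rule for named genes were chosen with earlier results of these data known, and 4 more families after the values were seen. The rule took called genes with groups that did not overlap, ranked by fold, p-value or level, up to 4 called members of each list, genes with 0 counts in 1 group, neighbouring called genes, genes with the smallest p for the XX minus XY difference, and a few fixed genes. Some genes that it selects are not reported here. Alternatives were other scalings and filters, a replicate block, limma-voom (limma 3.58.1), DESeq2 1.42.0, the 5 XX libraries alone, a stricter threshold, and leaving out each XX library.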

Additional observations from a re-analysis of the deposited data

How the results depend on the processing

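The direction of the effect did not reverse for any called gene named in the text under any setting tried, but the number of calls moved. Against 503 rises and 695 falls, library size only gave 357 falls, limma-voom 1126 rises, DESeq2 913 rises and 1076 falls, and the 5 XX libraries alone 912 rises. At an adjusted p under 0.01, 111 rises and 121 falls were left. Leaving out 1 library gave between 125 and 295 rises and between 139 and 396 falls, with the fewest rises without CKO 1 and the fewest falls without CKO 2. With 1 CKO library left, its spread is assumed to be that of the other groups. For the XX minus XY difference, called for 0 genes in edgeR, the fit with no low-count filter gave 2 falls, DESeq2 12 rises and 38 falls, and leaving out 1 library between 0 and 3 falls, the 3 without CKO 1. Xist, not called, had a log2 fold change of 1.66 without CKO 1 and -0.81 without CKO 2, and Ezh1, also not called, 0.01 with library size only. The causes were not tested.

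The replicate numbers used here are those of the sample titles. The columns of the table carry other numbers for the XX embryos, of which CKO and Ctrl share only 1, so those allow no block. Title numbers were not shown to pair the embryos. Deviations of same-numbered XX embryos from their group means correlated at 0.168 and -0.0167. Those of the 2 CKO embryos mirror each other, so these correlations cannot show or exclude pairing. A fit with the replicate block gave 359 rises and 695 falls and 0 calls for the difference. With 2 CKO embryos and 48% of simulated 2-fold changes recovered, a gene that was not called is not shown to be unchanged.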

Other observations

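The nuclear transport receptors, the hnRNP genes and the translation initiation factors, families picked after their values were seen, are described by their counts, which support nothing because of that choice. Of 22 tested importins and exportins, 10 fell and 0 rose, 19 had a log2 fold change below 0 and the median was -0.51. The falls were 45.5%, against 4.16% of all genes and 10.3% of the highest class by level. Leaving out a library left between 2 and 8 falls, the fewest without CKO 2, and library size only left 9. Xpo1, the main export receptor, was at 667 and 658 CPM in CKO against 941, 931 and 957 in Ctrl. Of 20 hnRNP genes, 7 fell (35%, against the same shares) and 0 rose. The falls numbered 6 under library-size scaling and 6 without any 1 of the Ctrl libraries, and were not kept without CKO 2. Hnrnpu was at 1640 and 1420 CPM against 2120, 2140 and 2200. Of 54 translation initiation factors 2 fell (3.7%, near the 4.16% of all genes) and 0 rose.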
